A study of Saccharomyces cerevisiae with 48 samples.

Results

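The replication timing of budding yeast that over-expresses 6 limiting initiation factors was compared with that of its control, in a background that lacks the origins ARS1008 and ARS1009 on either side of the meiotic kinase gene IME2. The comparison used 22 of the 48 samples of the series (44 of the 48 have a table of ratios), namely 11 timepoints at 5, 10, 15, 20, 25, 30, 35, 40, 45, 50 and 60 min after release from an alpha factor arrest for each of the strains sml1∆ SSDDCS ars1008∆ ars1009∆ and sml1∆ ars1008∆ ars1009∆, called here SSDDCS and sml1. Both are MATa strains of the W303 background, carry rad5-535, can1-100 and the auxotrophic alleles trp1-1, ade2-1, leu2-3, 112, ura3-1 and his3-11, 15, and lack Sml1, an inhibitor of ribonucleotide reductase, through HphNT in SSDDCS and URA3 in sml1. The SSDDCS strain also holds Sld7 with Cdc45, Sld3-A with Dbf4-A, and Sld2 with Dpb11 at the LEU2, HIS3 and TRP1 loci, each pair under the divergent GAL1-10 promoter, and galactose was given to both strains for 30 min before release and throughout S-phase. Each strain has 1 time course in these data, so no test across cultures could be made, and errors below are SDs over bins or origins.

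In budding yeast, origins are licensed in G1 by loading of the Mcm2-7 helicase and fire in S-phase once the Dbf4-dependent and cyclin-dependent kinases act on them. Dbf4, Sld3, Sld2, Dpb11, Sld7 and Cdc45 are present in limiting amounts, so licensed origins compete for them and fire in a reproducible order. Kinetochores recruit Dbf4 and the origins near centromeres fire early, whereas Rif1 counteracts the Dbf4-dependent kinase near telomeres, where origins fire late or are passively replicated by forks from elsewhere.

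Each value is a read ratio in a 1-kb bin, of a timepoint over that strain's own G1 arrest, scaled by the authors so that the mean over bins equals a bulk DNA content between 1 and 2 taken from flow cytometry. At 5, 10, 15, 20, 25 and 30 min this bulk value was 1.14, 1.30, 1.48, 1.64, 1.77 and 1.85 in SSDDCS, against 1.03, 1.12, 1.27, 1.45, 1.62 and 1.75 in sml1. Since the bulk value is built into every ratio, the absolute size of an advance rests on it, while the order of bins within a sample does not. The DNA came from whole cultures, so a ratio of 1.5 gives the share of replicated copies and cannot tell cells that are late as a whole from cells that are late at that bin. A logistic curve was fitted to the 11 ratios of each bin, and Trep was the time at which the curve reached 1.5. A bin was called advanced when Trep was over 2 min earlier in SSDDCS than in sml1, and later when it was over 2 min later. The SE of the difference from the 2 fits of a bin had a median of 1.71 min and the spread between adjacent bins corresponded to an SD of 3.25 min, so single bins near the limit were within this noise and statements below rest on groups of bins.

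SSDDCS advanced most of the genome. The median Trep was 16.1 min in SSDDCS and 22.3 min in sml1, and the difference per bin had a median of -5.50 min with quartiles of -8.99 and -2.42 min. Of 11320 bins fitted in both strains, 8829 were advanced, which is 78.0%, and 431 were later, which is 3.81%, leaving 18.2% within 2 min. An advance of over 5 min was found in 54.0% of bins and of over 10 min in 19.1%. When the genome median was subtracted from every difference, 35.0% of bins were earlier and 33.7% later by over 2 min. This near balance follows from the subtraction itself. Trep was also less spread out in SSDDCS, with 5th and 95th percentiles of 11.3 and 24.8 min, against 15.1 and 31.2 min in sml1.

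The advance grew with the normal lateness of a bin. To keep noise of the compared strains out of the ranking, bins were put into deciles by Trep of the sml1 strain that lacks ARS816 and ARS818 instead, which is not in the comparison. In the earliest decile the median Trep was 13.6 min in SSDDCS and 16.04 min in sml1, and the median difference was -2.46 min. In the latest decile these values were 20.3 min, 28.6 min and -8.06 min, and the median difference was larger in size in each later decile than in the one before it. The ratios themselves show this order from 15 min on, whereas at 10 min the earliest decile gained more over sml1 than the latest. Taken over the sample median, the latest decile was lower in SSDDCS than in sml1 at 10 and 15 min, by -0.0145 and -0.0108. At 20 min it was higher, by 0.0503. At 10, 15, 20, 25 and 30 min the latest decile had mean ratios of 1.29, 1.42, 1.47, 1.59 and 1.74 in SSDDCS, against 1.12, 1.22, 1.20, 1.34 and 1.55 in sml1. The earliest decile had 1.34, 1.58, 1.79, 1.89 and 1.92 in SSDDCS, against 1.13, 1.44, 1.78, 1.86 and 1.91 in sml1, so from 20 min on the earliest decile was nearly equal in both strains. The mean of the earliest decile exceeded that of the latest by 0.315 in SSDDCS and 0.584 in sml1 at 20 min. At 5 min this gap was 0.000629 in SSDDCS and 0.00472 in sml1, although the bulk value of the SSDDCS sample was already 1.14. Without the 5 min samples the genome median was -5.68 min and 79.9% of bins were advanced.

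At origins the temporal order nearly vanished with SSDDCS. Of 352 origins in the annotation of the R64 assembly, 337 had a value as the mean of the bins within 2 kb, and 308 of them were advanced (91.4%) and none later, with all 337 differences below 0. The lowest, -45.6 min at ARS1200-1 in the ribosomal DNA repeat of chromosome XII, rests on 1 bin of a repeated region, and 314 origins had at least 3 bins, of which 287 were advanced. In SSDDCS the origins had a median Trep of 12.8 min with quartiles of 11.9 and 14.0 min, against 19.8 min with quartiles of 16.6 and 22.8 min in sml1. The 331 origins outside the deleted segments were ranked into quintiles by the same sml1 strain lacking ARS816 and ARS818. From the earliest to the latest quintile the median Trep was 12.4, 12.7, 12.9, 12.8 and 13.7 min in SSDDCS, against 15.3, 16.9, 19.7, 22.2 and 24.3 min in sml1. The latest quintile thus followed the earliest by 1.29 min in SSDDCS and by 8.99 min in sml1, and the SD among origins of a quintile was between 0.986 and 2.54 min in SSDDCS. The median differences were -3.02, -3.83, -6.89, -9.20 and -10.3 min, and the 95% interval of the median was -3.35 to -2.58 min in the earliest quintile and -11.1 to -8.88 min in the latest.

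**Figure D1:**
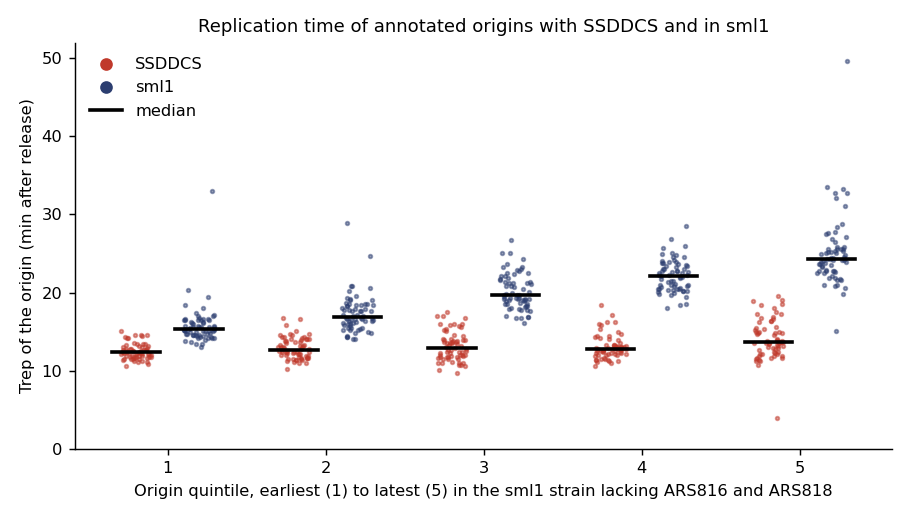
Trep of each annotated origin in min after release (points) for SSDDCS and sml1, in quintiles from earliest (1) to latest (5) as ranked in the sml1 strain lacking ARS816 and ARS818, with black bars at the medians. The SSDDCS medians stay between 12.4 and 13.7 min, while the sml1 medians run from 15.3 min in quintile 1 to 24.3 min in quintile 5.

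The ratios at origins at single timepoints follow this pattern. At 15 min the median ratio of the earliest quintile was 1.66 ± 0.0623 in SSDDCS and 1.496 ± 0.0897 in sml1 (SD over 67 origins), and that of the latest was 1.58 ± 0.117 in SSDDCS and 1.26 ± 0.0814 in sml1 (SD over 66 origins). At 20 min the latest quintile stood at 1.79 ± 0.119 in SSDDCS and 1.33 ± 0.121 in sml1, a gap larger than either SD, while the earliest stood at 1.85 ± 0.0613 in SSDDCS and 1.83 ± 0.132 in sml1. By 30 min the latest quintile had reached 1.90 in SSDDCS and 1.68 in sml1.

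Among origins measured in at least 3 bins, the 6 most advanced were ARS801, ARS802, ARS318, ARS316, ARS1004 and ARS230. They had Trep between 11.6 and 15.2 min in SSDDCS and between 26.7 and 32.8 min in sml1. ARS801 and ARS802, both on chromosome VIII, lie within 10 kb of the telomere. At 10, 15 and 20 min ARS801 had ratios of 1.31, 1.60 and 1.92 in SSDDCS, against 1.01, 1.19 and 1.20 in sml1, and its Trep differed by -19.4 ± 0.818 min (SD over 3 bins). ARS802 differed by -17.6 ± 3.21 min (4 bins). ARS318, beside the silent mating locus HMR on chromosome III, had ratios of 1.34, 1.53 and 1.73 at these times in SSDDCS, against 1.12, 1.19 and 1.21 in sml1, a difference in Trep of -16.2 ± 3.86 min. ARS316 differed by -15.7 ± 2.51 min, ARS1004 by -15.2 ± 1.43 min and ARS230 by -15.0 ± 2.85 min. All 6 therefore passed the ratio of 1.5 before 20 min in SSDDCS and after 20 min in sml1.

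The 6 least advanced origins were ARS308, ARS806, ARS209, ARS304, ARS427 and ARS307, with differences between -0.380 and -0.788 min, each smaller than its SD over 4 bins. Their Trep lay between 12.7 and 15.1 min in SSDDCS and between 13.5 and 15.5 min in sml1. ARS308 is the origin at CEN3, 0.187 kb from the centromere, and ARS307 and ARS806 lie 5.55 and 10.7 kb from CEN3 and CEN8. ARS307, a textbook early origin, had ratios of 1.34, 1.56 and 1.80 at 10, 15 and 20 min in SSDDCS, against 1.08, 1.52 and 1.87 in sml1. Its ratio was thus higher in SSDDCS at 10 and 15 min and lower at 20 min, and the same was true of ARS308, with 1.30, 1.496 and 1.73 in SSDDCS against 1.08, 1.41 and 1.98 in sml1. ARS209, next to the HHF1 and HHT1 histone gene pair, had 1.46, 1.68 and 1.76 in SSDDCS against 1.25, 1.59 and 1.96 in sml1. The call at ARS209 depends on the timepoints, since its difference was -3.25 min without 5 min (and 0.541 min without 15 min), and that at ARS304 was -2.10 min without 15 min. The sign at ARS308 is not settled either, with 0.949 min without 15 min.

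Origins used as standard examples divided in the same way. ARS305, ARS306, ARS606 and ARS607, all early, and ARS1 at TRP1 differed by -2.59 ± 0.901, -1.22 ± 1.76, -1.29 ± 1.98, -1.12 ± 0.784 and -2.60 ± 0.951 min. Without 15 min the difference was -1.71 min at ARS1 and -2.08 min at ARS607, and the difference at ARS306 was -2.98 min without 5 min and 0.589 min without 15 min. The late origins ARS522 (also called ARS501), ARS603, ARS609 and ARS1412 differed by -9.53 ± 0.878, -11.9 ± 4.37, -13.8 ± 3.30 and -10.7 ± 4.90 min, each measured in 4 bins. In SSDDCS they had Trep between 12.2 and 15.0 min, which is the range of the early origins. ARS603 had ratios of 1.66 and 1.85 at 15 and 20 min in SSDDCS, against 1.29 and 1.42 in sml1. ARS315 on chromosome III was intermediate at -7.01 ± 4.54 min. The inactive origins at the silent mating locus HML were also earlier, with -8.09 ± 1.36 min over the 3 bins shared by ARS302 and ARS303 and -6.85 min at ARS301, which has 1 bin. ARS319, in the last bin of chromosome III, differed by -14.6 min, and ARS810, an origin that is normally replicated passively, by -18.9 ± 8.77 min over 2 bins.

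The sequences of 4 origins from these lists, 2 most advanced and textbook late (ARS802, ARS609) and 2 least advanced (ARS209, ARS307), are shown because the origins differ by over 10 min in their response and share the same element. This is the 11-base ARS consensus sequence, the AT-rich element bound by the origin recognition complex, which is in capitals. Each run is read 5′ to 3′ on the strand of the element, which is the minus strand in all 4, with 25 bases on either side. The letters are those of the reference genome of S288C as given by RefSeq (R64), not of the W303 strains. ARS802 is at chrVIII:7718-7778, ARS609 at chrVI:256350-256410, ARS209 at chrII:255046-255106 and ARS307 at chrIII:108935-108995.
ARS802: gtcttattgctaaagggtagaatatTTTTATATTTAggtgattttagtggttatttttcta
ARS609: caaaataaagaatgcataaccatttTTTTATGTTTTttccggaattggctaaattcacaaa
ARS209: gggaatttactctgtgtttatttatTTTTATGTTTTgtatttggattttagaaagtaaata
ARS307: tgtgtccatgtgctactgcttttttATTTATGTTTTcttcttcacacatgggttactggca

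ARS609 and ARS209 have the same 11 bases in the element, although ARS609 differed by -13.8 min and ARS209 by -0.703 min. On either strand, an exact match to the consensus stood within 300 bases centred on the origin in 34.1% of 337 origins, against 1.88% of all 300-base windows of the genome. Split into 3 equal groups by the difference in Trep, the most advanced origins held a match in 34.5%, the middle group in 33.3% and the least advanced in 34.5%. A match is a description of these letters and does not show binding.

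Local minima of Trep, the points of a profile that replicate before their neighbours, were more numerous with SSDDCS. Minima of Trep, smoothed over 11 bins and at least 2 min deep, numbered 221 in SSDDCS and 181 in sml1, with a median spacing of 51 and 60 kb. Of these, 194 in SSDDCS (87.8%) and 134 in sml1 (74.0%) lay within 5 kb of an annotated origin, where 25.7% of all bins lie. There were 95 minima of SSDDCS with no minimum of sml1 within 5 kb, and 78 of them were at an annotated origin. Among them were ARS105, ARS107 and ARS101 on chromosome I and ARS203, ARS206, ARS207 and ARS209 on chromosome II. ARS101 and ARS209 were early in sml1 already, with Trep of 14.6 and 13.5 min. A minimum without a partner in sml1 thus need not be an origin that was late or passive there. In the opposite direction, 55 minima of sml1 had none of SSDDCS within 5 kb, and 21 of these were at an annotated origin. The depth of the minima also became more alike, with a median Trep of 12.8 ± 1.28 min in SSDDCS and 18.5 ± 3.33 min in sml1 (SD over minima).

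Distance from an origin mattered more for Trep than for its difference between strains. In bins within 2 kb of an origin the median Trep was 12.8 min in SSDDCS and 19.4 min in sml1, with a median difference of -6.34 min, and over 20 kb from an origin it was 20.3 min in SSDDCS and 26.0 min in sml1, with -5.54 min. Within a class of like timing the distance did separate them. In the earliest quintile of bins, those within 2 kb of an origin differed by a median of -3.62 min (71.7% advanced) and those over 10 kb away by -2.15 min (50.9% advanced, 9.85% later). In the latest quintile the values were -10.7 min within 2 kb (98.6% advanced) and -7.35 min over 10 kb away (87.4% advanced).

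**Figure D2:**
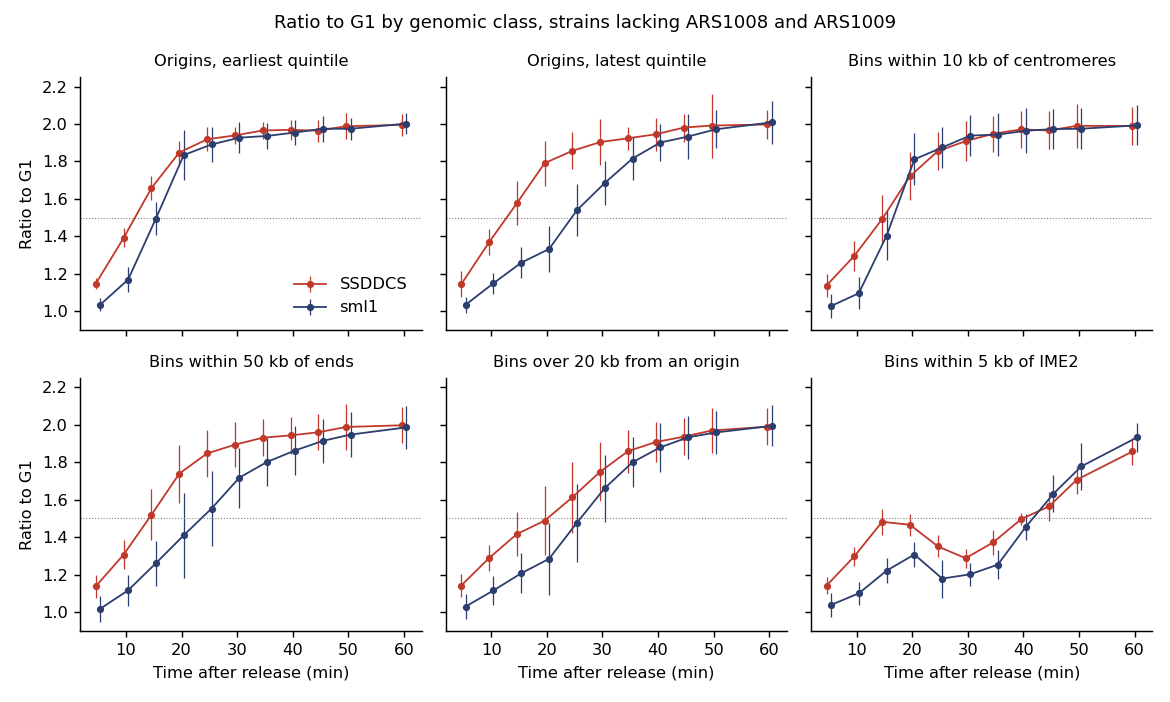
Ratio to G1 against time after release (min) for SSDDCS and sml1 in 6 classes, as the median over origins in the upper left and upper middle panels and the mean over bins in the others, with bars of 1 SD and a dotted line at the ratio of 1.5. SSDDCS is above sml1 from 5 to 40 min in the latest origins and at chromosome ends, while around centromeres sml1 is above at 20 min (1.72 in SSDDCS and 1.81 in sml1), and around IME2 both strains dip after 20 min.

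Centromeres were the part of the genome that was least advanced. In the 313 bins within 10 kb of a centromere the median Trep was 15.1 min in SSDDCS and 16.1 min in sml1, the median difference was -1.26 min, and 36.4% of bins were advanced and 11.5% later. At 10, 15, 20, 25 and 30 min their mean ratio was 1.30, 1.49, 1.72, 1.85 and 1.91 in SSDDCS, against 1.10, 1.40, 1.81, 1.87 and 1.94 in sml1. SSDDCS was thus ahead up to 15 min and behind from 20 to 30 min. Over the sample median, however, the ratio was higher in SSDDCS at only 1 of 11 timepoints. At 15 min it was 1.01 in SSDDCS against 1.11 in sml1, so the lead at 15 min did not hold relative to the rest of the genome. Of the 16 centromeres, 14 had a median below 0 and only CEN12 was below -2 min, at -2.97 min, with Trep of 13.9 min in SSDDCS and 16.7 min in sml1. CEN6 had the highest value, 1.94 min, with 18.7 min in SSDDCS and 16.8 min in sml1, and an interval of the median from -0.296 to 3.34 min over its 15 bins, while CEN10 stood at 0.0138 min. All 16 were less advanced than the genome median. Early bins elsewhere were more advanced. Bins of the earliest quintile within 10 kb of a centromere differed by -1.45 min (interval -1.72 to -1.004 min) and those of the same quintile over 20 kb away by -3.23 min (interval -3.37 to -3.01 min). Origins of the earliest quintile gave -2.13 min within 20 kb of a centromere (22 origins) and -3.35 min farther away (45 origins). Beyond the centromere the advance grew with distance, to -1.995 min at 10 to 20 kb, -2.32 min at 20 to 50 kb, -4.49 min at 50 to 100 kb and -6.40 min farther away.

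Chromosome ends were the most advanced. In the 1201 bins within 50 kb of an end the median Trep was 14.7 min in SSDDCS and 24.4 min in sml1, a median difference of -9.16 min, and 90.2% of bins were advanced. In SSDDCS the ends were therefore close to the centromeric bins, at 14.7 min against 15.1 min, whereas in sml1 they were later, at 24.4 min against 16.1 min. Which came first in SSDDCS depends on the window, since bins 10 to 20 kb from a centromere had a median Trep of 14.1 min there. At 10, 15, 20, 25 and 30 min the ends had a mean ratio of 1.31, 1.52, 1.74, 1.85 and 1.89 in SSDDCS, against 1.12, 1.26, 1.41, 1.55 and 1.72 in sml1. The ratio over the sample median was higher in SSDDCS at 11 of 11 timepoints. The difference was -11.0 min in the outermost 10 kb, -9.80 min from 10 to 20 kb, -8.70 min from 20 to 50 kb, -5.82 min from 50 to 100 kb, and -5.15 and -4.97 min at 100 to 200 kb and beyond. Bins of the latest quintile differed by -11.5 min within 50 kb of an end and by -7.45 min elsewhere, so bins of like timing differed with their place.

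All 32 ends had a median below -2 min, 16 of them below -10 min. The left end of chromosome X was the most advanced, at -13.4 min, with Trep of 17.0 min in SSDDCS and 28.3 min in sml1. The 6 ends with a median above -5 min were the left ends of III and XIII and the right ends of I, IX, XIII and XV. In sml1 these were early already, with Trep between 15.8 and 19.1 min. The least advanced was the left end of III at -2.14 min, with median Trep of 15.8 min in SSDDCS and 16.3 min in sml1 (the median of the differences is not the difference of the medians), although its terminal origins ARS301 to ARS303 at HML were advanced. The 52 origins within 50 kb of an end had a median Trep of 13.2 min in SSDDCS and 24.5 min in sml1, and 29 of them were advanced by over 10 min. Of all 337 origins 70 were advanced by this much (20.8%). The count was 0 of 34 origins within 20 kb of a centromere and 41 of 251 elsewhere.

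**Figure D3:**
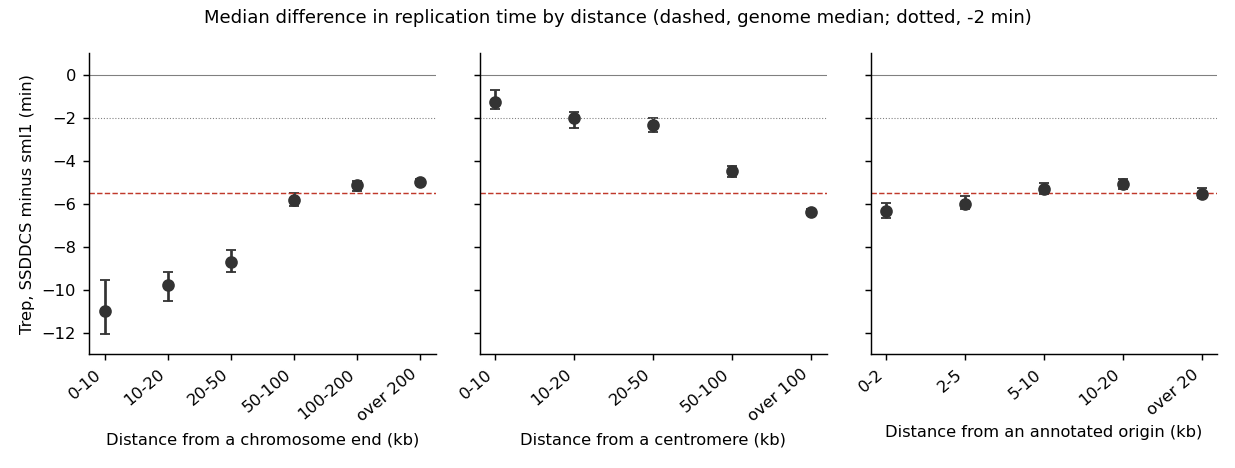
Median difference in Trep (SSDDCS minus sml1, min) of 1-kb bins by distance (kb) from a chromosome end, a centromere and an annotated origin, with bars for the exact binomial 95% interval of the median, which treats bins as independent. The difference is -11.0 min at the ends and -1.26 min at centromeres, and it lies between -5.09 and -6.34 min at every distance from an origin.

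**Figure D4:**
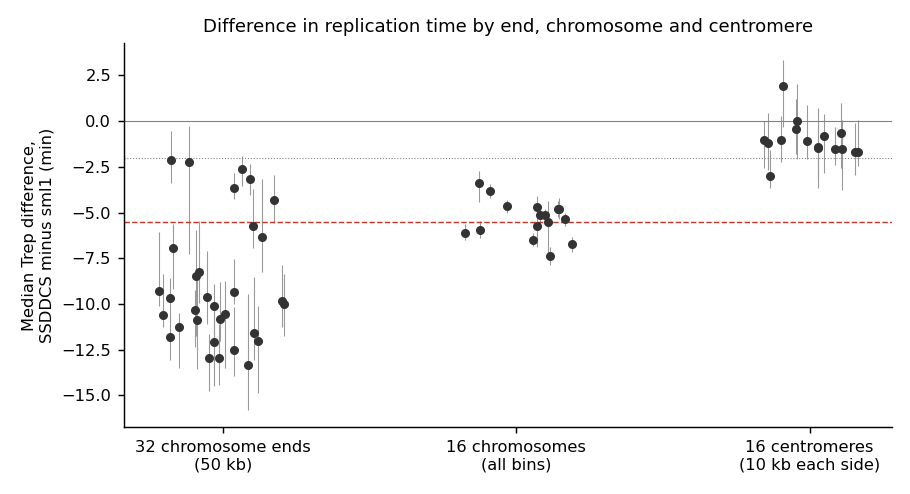
Median difference in Trep (SSDDCS minus sml1, min) for each of the 32 chromosome ends, 16 chromosomes and 16 centromeres, with bars for the 95% interval of the median, a dashed line at the genome median of -5.50 min and a dotted line at -2 min. Ends lie between -13.4 and -2.14 min, chromosomes between -7.38 and -3.38 min and centromeres between -2.97 and 1.94 min.

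Every chromosome was advanced, from -7.38 min on XIV (15.8 min in SSDDCS and 23.7 min in sml1, 86.2% of bins advanced) to -3.38 min on III (15.6 min in SSDDCS and 19.3 min in sml1, 62.1% advanced). Chromosome V followed III with -3.80 min, and chromosome X had the highest share of later bins, 8.26%. The chromosomes differed less in SSDDCS, where their medians ran from 14.7 min on I to 17.1 min on VII, than in sml1, where they ran from 19.3 min on III to 23.9 min on IV.

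Regions that SSDDCS did not advance were then mapped as runs of at least 5 bins in which the difference, averaged over 11 bins, was above -2 min. There were 79 such domains with a total of 1357 kb, or 12.01% of the genome with a smoothed value, and a median length of 13 kb. Centromeres lay in 13 of them, and 49.7% of all bins above this limit were within 50 kb of a centromere, where 13.5% of the genome lies. Of the 352 annotated origins 20 lay in these domains, in 16 of them. Their mean Trep had a median of 17.6 min in SSDDCS and 18.2 min in sml1. Most were thus early regions in sml1, although these sml1 values also entered the choice of the domains. The longest, of 70 kb, was on the left arm of chromosome V from 73001 to 143000 and ended 8.99 kb from CEN5. It had a mean Trep of 18.1 min in SSDDCS and 17.9 min in sml1, a difference of 0.203 ± 2.39 min (SD over bins), with ARS508 as the only annotated origin, and it contains URA3, MCM3 and GCN4. Next were the 63 kb around CEN10, from 381001 to 444000 on chromosome X, at -0.391 ± 2.59 min, with ARS1014 and ARS1015, and the 54 kb around CEN6, from 144001 to 198000 on chromosome VI, at 0.106 ± 2.80 min, with ARS606. Outside centromeric regions, the longest were on chromosome VII from 843001 to 890000 at -0.754 ± 2.42 min, with ARS737, the only annotated origin there, and on chromosome X from 552001 to 595000 at -0.362 ± 3.52 min, which has no annotated origin. The last was not early in sml1, with Trep of 22.6 min in SSDDCS and 22.9 min in sml1, near the genome median of 22.3 min in sml1. On chromosome III the region from 37001 to 75000 between the early origins ARS305 and ARS306 gave -0.902 ± 2.97 min.

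Strongly advanced domains, with a smoothed difference below -10 min, numbered 80 and covered 1132 kb, or 10.02% of the genome with a smoothed value. None held a centromere, 32 lay within 50 kb of an end, and 41.1% of bins below this limit were within 50 kb of an end, where 10.5% of the genome lies. They held 50 of the 352 annotated origins, in 37 domains, and their Trep had a median of 14.5 min in SSDDCS and 25.9 min in sml1. The longest, of 43 kb, was near the right end of chromosome II from 724001 to 767000, with ARS224 and ARS225, at -11.4 ± 3.97 min, with Trep of 14.4 min in SSDDCS and 25.7 min in sml1. Next came 39 kb near the right end of IV from 1484001 to 1523000, with ARS446, at -11.98 ± 3.32 min, and 39 kb near the right end of VII from 1034001 to 1073000, which has no annotated origin, at -11.98 ± 4.13 min. The domain near the left end of VI from 15001 to 46000, with ARS600.4, ARS601 and ARS602, differed by -13.3 ± 3.39 min. On chromosome XII, domains near either end, from 18001 to 48000 with ARS1202 and from 1003001 to 1032000 with ARS1232, ARS1233 and ARS1234, gave -11.4 ± 4.22 and -11.4 ± 3.28 min. The second of these holds SIR3, a silencing gene, and the domain on chromosome II holds RIF1, whose product acts on the timing of telomeric origins.

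Later replication with SSDDCS was rare and scattered. The 431 later bins had a median Trep of 21.8 min in SSDDCS and 18.5 min in sml1, and 57 bins (0.504%) were later by over 5 min. Of the later bins, 14.2% lay within 20 kb of a centromere and 3.48% within 50 kb of an end, against 5.42% and 10.6% of all bins, and they were a median of 14.9 kb from an annotated origin, against 10.8 kb for all bins. Only 1 run of at least 5 bins had a smoothed difference above 2 min. It spans 15 kb on chromosome XII from 171001 to 186000, 20.2 kb from CEN12, without an annotated origin, and it had a mean Trep of 28.8 min in SSDDCS and 25.1 min in sml1, a difference of 3.72 ± 4.10 min. In the strains lacking ARS816 and ARS818 the same bins differed by -1.98 min, the opposite direction.

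The segment of chromosome X that lacks ARS1008 and ARS1009 was the latest part of the genome in both strains. Over the 10 bins up to 5 kb from the centre of IME2, on chromosome X from 221390 to 223327, Trep was 35.6 ± 2.84 min in SSDDCS and 40.1 ± 3.39 min in sml1, later than 99.8% of bins in SSDDCS and 99.7% in sml1. The difference was -4.50 ± 4.86 min, smaller than its SD over bins, and 1.001 min above the genome median, so IME2 was not advanced relative to the rest of the genome. Its ratio was 1.30, 1.48, 1.47, 1.35, 1.29, 1.37, 1.496, 1.56, 1.71 and 1.86 from 10 to 60 min in SSDDCS, against 1.10, 1.22, 1.31, 1.18, 1.20, 1.25, 1.45, 1.63, 1.78 and 1.93 in sml1. The ratio did not increase steadily in either strain, with a dip at 30 min in SSDDCS and at 25 min in sml1, and from 45 min on it was lower in SSDDCS. The logistic curve therefore described these bins poorly, and only 2 of the 10 had a root mean square residual below 0.1 in both strains, with a mean difference of -0.751 min.

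The flanks of the segment were advanced more than its centre. ARS1010, the origin to the right, had Trep of 14.4 ± 3.05 min in SSDDCS and 22.7 ± 2.22 min in sml1, a difference of -8.32 ± 4.16 min, and ARS1007 to the left had 10.8 ± 0.757 min in SSDDCS and 19.2 ± 2.15 min in sml1, a difference of -8.38 ± 2.52 min. At the site of ARS1009, from 228552 to 229043, Trep was 33.0 ± 3.46 min in SSDDCS and 36.3 ± 5.36 min in sml1, a difference of -3.34 ± 7.89 min, which was -1.56 min without 20 min. Only 1 bin within 2 kb of the site of ARS1008, from 204029 to 204917, had a value in both strains. In the smoothed profile Trep reached its latest value in the bin from 223001 to 224000 in SSDDCS, at 35.6 min, and in that from 237001 to 238000 in sml1, at 41.1 min. On the right the profile was followed only to 300000, just past ARS1010. The earliest point within it was the bin from 298001 to 299000 in both strains. This bin is at a minimum in SSDDCS, but sml1 had no minimum at least 2 min deep within 5 kb of it. From this bin Trep increased over 75 kb in SSDDCS and 61 kb in sml1. That corresponds to 3.41 kb per min in SSDDCS and 3.45 kb per min in sml1, from starting points that are not alike. On the left the profile was followed only from 150001, so its earliest point was not at ARS1007, which is earlier. From that point, in the bin at 159001 in SSDDCS and 154001 in sml1, the values were 3.52 kb per min over 64 kb in SSDDCS and 4.57 kb per min over 83 kb in sml1. No annotated origin lies at these left points. In SSDDCS the latest point falls among the bins around IME2 that the curve described poorly. The slopes from the 2 sides are therefore not like measures.

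**Figure D5:**
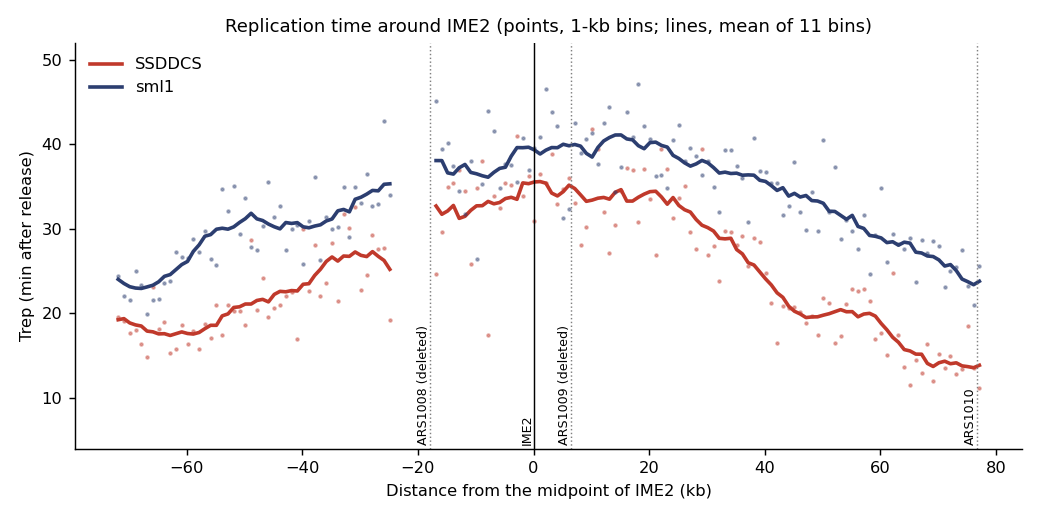
Trep (min after release) against distance from the midpoint of IME2 (kb) for SSDDCS and sml1, with points for 1-kb bins, lines for the mean of 11 bins and dotted lines at the deleted ARS1008 and ARS1009 and at ARS1010. Around IME2 Trep is 35.6 min in SSDDCS and 40.1 min in sml1, at ARS1010 it is 14.4 min in SSDDCS and 22.7 min in sml1, and the lines break where bins near ARS1008 have no value.

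Genes were described by the bin of their midpoint. Of 6100 genes with a value 77.4% were advanced and 236 were later, with a median difference of -5.38 min. The counts of each group are to be read against these. Bins at the native loci of the 6 over-expressed genes were all advanced, with a median of -7.90 min. They ran from -5.30 min at DBF4, the activating subunit of the kinase, to -14.2 min at DPB11 on chromosome X. The SSDDCS strain holds a further copy of each gene, whose reads map to the same bins. These values can therefore mix the native locus with the insert and do not give the Trep of the native copies alone. Histone genes, which encode the proteins that package new DNA in S-phase, had a median of -1.11 min over the core genes with the variant HTZ1 and the linker HHO1, with 4 of 10 advanced and 3 later. Of the core genes only HTA1 and HTB1 were advanced. The HTA2-HTB2 pair gave -0.528 and 0.353 min, and the HHT2-HHF2 pair on chromosome XIV was later, at 2.32 and 3.82 min, with a smoothed difference of 0.948 and 1.18 min, whereas HTA1, HTZ1, HTB1 and HHO1 were advanced, at -5.01, -2.33, -2.37 and -6.88 min. Galactose genes had a median of -0.742 min, with 3 of 7 advanced. Of the GAL7-GAL10-GAL1 cluster on chromosome II, GAL10 and GAL1 differed by 6.17 and 2.31 min and GAL7 by -0.742 min, and the smoothed differences were between 0.413 and 0.770 min. The inserts of the SSDDCS strain also carry the GAL1-10 promoter of this cluster, whose reads can map here. Values at the cluster may therefore mix the native locus with the inserts as well.

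Of 14 early meiotic genes other than IME2, 11 were advanced and none later, with a median of -4.02 min, a share of 78.6% that is close to the 77.4% of all genes. NDT80, the meiotic transcription factor gene on chromosome VIII, had Trep of 12.8 min in SSDDCS and 23.0 min in sml1, a difference of -10.2 min, and the recombinase gene DMC1, the double-strand break gene SPO11 and the kinase gene MEK1 differed by -10.1, -10.1 and -10.05 min, with smoothed differences of -8.95, -5.63 and -5.19 min. REC8, the meiotic cohesin, differed by 1.87 min in its own bin and by -2.01 min after smoothing, so its direction is not settled. Among 9 cyclin genes 5 were advanced and 1 later, from -18.2 min at CLB6 to 2.22 min at CLN1, and the smoothed differences at these were -7.59 and -2.30 min. Ribosomal protein genes (103 of 130 advanced, median -4.77 min) were close to all genes, and tRNA genes (179 of 261 advanced, median -3.65 min) were somewhat below them. Of the subtelomeric COS genes all 5 with a value were advanced, with a median of -14.1 min, while 7 of 24 PAU, 8 of 16 HXT and 1 of 5 thiamine genes had a value, with 3, 6 and 0 advanced. Values at single bins carry the noise given above, and no statement on a single gene rests on more than 1 bin unless the smoothed value is given.

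The same contrast was available in another pair of time courses, in which ARS816 and ARS818 were deleted instead. There the median difference was -4.18 min, with 72.3% of bins advanced and 3.38% later. The differences in the 2 backgrounds had a correlation of 0.482 over 11061 single bins outside the deleted segments and of 0.882 after averaging over 11 bins, as a description over bins that are not independent and share reference mapping and base composition. Not advanced bins numbered 2491 of 11320 in the background without ARS1008 and ARS1009 and 3129 of 11316 in the other. The 1312 shared ones were 52.7% and 42.0% of these lists. Of later bins 63 were shared, 14.6% of 431 and 16.5% of 382, where later bins were 3.81% of all bins here and 3.38% there. Not advanced and later bins are unlike shares of all bins, so their overlaps cannot be ranked by these percentages. Of the 79 not advanced domains 70 were also above -2 min in the other background, with a median of -1.14 min, and of the 80 strongly advanced domains 8 were also below -10 min there, with a median of -7.94 min. These 2 counts cannot be set against each other. The limits are fixed, while the genome median was -5.50 min here and -4.18 min there, and the domains were picked as extremes here. The share of the whole genome beyond each limit after smoothing was not determined for the other background. At ends the other background gave -6.69 min and at centromeres -1.13 min. CEN6 was an exception, with 1.94 min here and -2.36 min there. From the earliest to the latest origin quintile it gave -1.87, -3.02, -4.78, -6.76 and -8.67 min, and the sml1 strain used for the ranks belongs to that pair.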

How the data were processed

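Repli-seq libraries of synchronised cultures were sequenced by the authors, who mapped reads to the S288C genome (sacCer3, which is R64), kept uniquely mapped reads, divided each timepoint by the G1 sample of its strain in 1-kb bins, and scaled this ratio to a bulk DNA content from flow cytometry, which the deposited tables give as a second column. The submitters' processing notes name Bowtie2 2.3.4, SAMtools 1.7.2 and bedtools 2.26.0. The deposited ratio tables hold 11312 to 11328 bins and no read counts, so depth is unknown and no interval for counting error could be given. The SD of the ratio between adjacent bins was 0.0608 to 0.118. Bins missing from the tables were not analysed here.

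Bins with at least 6 timepoints were fitted with a logistic curve between 1 and 2 by least squares (Python 3.11.15, numpy 2.4.6, scipy 1.17.1), and Trep was limited to 0 to 60 min. The difference is SSDDCS minus sml1, with limits of 2 min for a call and 10 min for strongly advanced domains, smoothing over 11 bins and runs of at least 5 bins. Origins were averaged over bins within 2 kb, ends taken as 50 kb and centromeres as 10 kb on either side. Intervals of medians are exact binomial 95% intervals over bins or origins, which are not independent and are not replicates. Positions of origins, centromeres and genes came from RefSeq R64. The text names the 6 most and 6 least advanced origins with at least 3 bins, textbook origins, those around the deletions, and the 6 longest domains of each kind. The regions, origin lists and gene groups were chosen with earlier results of these data known. The fit was tested on simulated time courses. Alternatives covered the curve, the bulk scaling, G1 as a timepoint, poorly fitted bins, centring, GC content, limits, windows, smoothing, and leaving out each timepoint. Since ratios are relative to each strain's own G1 sample, they cannot show the over-expression itself.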

Additional observations from a re-analysis of the deposited data

Results flagged for a closer look

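ARS302 and ARS303, inactive origins at the silent mating locus HML that share the same 3 bins, differed by -8.09 and -8.09 min (SSDDCS minus sml1) here, against -1.69 min in the strains lacking ARS816 and ARS818. They stood out because the ratio over the sample median was higher in SSDDCS than in sml1 at 11 of 11 timepoints here, by 9.63e-05 to 0.182, and lower at 11 of 11 timepoints in the other background, by -0.119 to -0.0210. The difference between the backgrounds was not tested, since each has 1 time course per strain.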

How the results depend on the processing

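No paired analysis was possible because each strain has 1 time course and the strains share only that number. The genome median of the difference stayed below 0 under every alternative but centring, at -5.20 min with a free upper plateau, -4.71 min as the first crossing of 1.5, -5.10 min with factors per timepoint estimated in place of the bulk values, -5.34 min with a G1 point and -5.64 min in bins with a residual below 0.1 (centring sets it to 0 by construction). The share of advanced bins was 73.5% with the first crossing, 74.99% with estimated factors, 76.9% with the G1 point, 79.7% in bins with low residuals, 35.0% after centring, 89.7% with a limit of 0 min and 54.0% with 5 min. The share of later bins was 2.52% with a free plateau, 4.66% with the first crossing, 5.29% with estimated factors, 2.87% in bins with low residuals, 33.7% after centring, 10.3% with a limit of 0 min and 0.504% with 5 min. The latest quintile of origins minus the earliest gave -7.30 min, and -9.47 min when ranked by the compared sml1 strain. Ends gave -8.76 min with the first crossing, -8.74 min with estimated factors, -9.50 min in bins with low residuals, -3.66 min after centring and -10.1 min within 20 kb. Centromeres gave -1.64 min within 20 kb and, after centring, 4.24 min, and IME2 then gave 1.001 min, a change of sign that follows from subtracting the genome median from every bin. With estimated factors in place of the bulk values both stayed below 0, at -0.995 min for centromeres and -3.09 min for IME2. The spread of Trep in SSDDCS over that in sml1 was 0.831, and 0.955 with the first crossing and 0.888 with estimated factors. The 79 domains that were not advanced became 151 after centring, 18 above 0 min and 124 with smoothing over 5 bins, where the limit, the centre or the noise of the profile differs by construction.

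Leaving out each timepoint in turn gave a genome median of -5.72 to -5.40 min, 76.9% to 79.9% advanced and 3.02% to 4.89% later bins, a difference between origin quintiles of -7.88 to -6.53 min, ends at -9.41 to -8.86 min, centromeres at -1.65 to -0.994 min, IME2 at -5.64 to -3.35 min, a spread ratio of 0.812 to 0.853 and 59 to 83 domains. Among named origins, ARS209 changed sign with windows of 5 kb, to 0.425 min, and without 15 min ARS209, ARS306 and ARS308 did, to 0.541, 0.589 and 0.949 min, as did ARS308 without 25 min, to 0.00210 min. With windows of 5 kb ARS305 and ARS306 crossed the limit of 2 min, at -1.73 and -2.01 min, and the 1 bin at ARS1008 (-20.5 min) became -9.37 min. The GC correction does not act on the spread of Trep and gave no value for it. Depth limits single bins, whose read counts are unknown.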
